A study of Mus musculus with 2 samples.

Results

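The complement components and receptors described here are 9 of the 32285 genes in the tables: C1qa, C1qb, C1qc, C3, C4b, C3ar1, C5ar1, C5ar2 and Serping1. They were taken by symbol from each of the 12 tables, 1 per cell cluster, and all 9 were found. The tables come from single-cell RNA sequencing of EYFP+ cells that were sorted from the dentate gyrus (DG) of adult mice 21 d after tamoxifen (TAM). WT mice were NestinCreERT2;VEGFWT/WT;ROSA-STOP-EYFP and iKD mice were NestinCreERT2;VEGFfloxed;ROSA-STOP-EYFP, all aged 7–10 wk at the start and given TAM for 5 d. In both genotypes TAM activates Cre under the Nestin promoter and turns on the EYFP reporter, so that the floxed Vegfa alleles of the iKD mice are the difference between them. Each genotype is 1 library of cells pooled from 5 littermates, so a difference between genotypes cannot be told apart from a difference between libraries or mice, and none was tested. The tissue was dissociated mechanically, and the sort kept EYFP+ cells, so that other cells of the DG are outside these data unless the gate let them through.

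Complement is a cascade of secreted proteins that tags microbes, dying cells and synapses for removal. Its classical pathway starts with C1q, a hexamer of trimers that each hold an A, a B and a C chain from separate genes. C1q bound to a surface leads, through the C4 protein, to cleavage of C3 and then of C5. The released fragments C3a and C5a act on receptors of immune cells. In the healthy brain, microglia are known as the main source of C1q, while C3 and C4 are more often linked to reactive astrocytes and other cells.

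The WT library held 5543 cells with a median of 8051 unique molecular identifiers (UMIs), and the iKD library 5261 cells with a median of 7080. The clusters carry names of neural stem cell (NSC), progenitor and neuroblast stages, and those names go against their markers. In the 8 clusters from qNSC1 to NB, each of 10 microglia markers, among them Cx3cr1, P2ry12 and Tmem119, was detected in over 50% of cells, with a median of 99.7%, while 9 neural stem cell markers had a median of 0.360% and 6 markers of granule neurons and neuroblasts 0.272%. In the cluster named Astrocytes, 8 of 8 choroid plexus markers were in over 50% of cells. Cluster names are therefore used below as names only, and no new cell type is given. Cells scored as female by Xist and the Y-linked genes made up 57.1% of the WT library and 69.4% of the iKD library, with 0.769% and 14.6% in IPC2 but 93.3% and 87.4% in eNB. The gap between genotypes was widest in aNSCs, 19.3% in WT and 88.9% in iKD. The libraries share 9 cell barcodes. The targeted gene Vegfa had 74 UMIs in WT and 36 in iKD cells of the 6 clusters that the study compared. Its levels were 0.0226 and 0.0137 per 10,000 UMIs, and its log2 ratio was -0.46 (-1.07 to 0.14). That ratio includes a pseudocount of 0.01, which is close to these levels and draws the ratio and its interval toward 0. The paper puts Vegfa near its detection floor and does not compare it between genotypes.

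The genes of the C1q chains were detected in almost every cell of the 8 clusters. The level of a gene is its mean over cells in UMIs per 10,000 UMIs of the cell, with an exact 95% Poisson interval in parentheses that covers counting error only. Over these 10292 cells, C1qa was at 72.2 (72.0 to 72.4), C1qb at 60.7 (60.5 to 60.8) and C1qc at 47.4 (47.3 to 47.6). Together they made up 1.78% of all UMIs of these cells. Of the 10292 cells, 0 were without a C1q UMI, which allows a share of up to 0.0291%, and 10289 held UMIs of all 3 chains.

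The 3 chains lie beside each other on the minus strand of chromosome 4, in the order C1qb, C1qc, C1qa from low to high coordinates. On GRCm38, C1qb is at chr4:136880129-136886187, C1qc at chr4:136889804-136893065 and C1qa at chr4:136895917-136898803. There are 3616 bases between C1qb and C1qc and 2851 between C1qc and C1qa, and the 3 genes span 18675 bases. The promoters of C1qb and C1qc, from RefSeq on GRCm38.p6 and running from 250 bases before to 50 bases after the start, are shown because their transcripts vary together across clusters and cells. The RefSeq start of C1qc lies inside the gene coordinates given above, so some bases before that start fall within the gene by those coordinates. Capitals mark the ETS core GGAAGT, printed as ACTTCC where it lies on the other strand, and GTCAGC, a core of MAF sites.
C1qb, chr4:136886151-136886450, minus strand: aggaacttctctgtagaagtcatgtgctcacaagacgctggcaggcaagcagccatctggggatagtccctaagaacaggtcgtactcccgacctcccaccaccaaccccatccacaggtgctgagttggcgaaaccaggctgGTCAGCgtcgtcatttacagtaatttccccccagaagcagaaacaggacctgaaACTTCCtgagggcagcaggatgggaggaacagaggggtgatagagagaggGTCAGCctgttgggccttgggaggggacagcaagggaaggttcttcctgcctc
C1qc, chr4:136892865-136893164, minus strand: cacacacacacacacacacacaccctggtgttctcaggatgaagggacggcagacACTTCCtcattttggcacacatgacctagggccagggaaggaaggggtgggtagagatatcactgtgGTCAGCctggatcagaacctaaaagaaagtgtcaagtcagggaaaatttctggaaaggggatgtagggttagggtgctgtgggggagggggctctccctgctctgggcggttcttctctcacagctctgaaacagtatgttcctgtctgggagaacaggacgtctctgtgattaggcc
Both promoters hold 1 GGAAGT, and C1qc's is part of GAGGAAGT, a motif of the myeloid factor PU.1. GTCAGC was found 2 times in C1qb and 1 time in C1qc. On either strand, 23.8% of 32851 promoters of this length hold GGAAGT, 3.20% GAGGAAGT and 15.7% GTCAGC. These are matches of letters and not shown to be bound sites.

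Across clusters, summed C1q varied little and in the same order in both genotypes at its ends. Summed over the chains, the level was highest in NSPCs, 215.3 (214.5 to 216.0), followed by qNSC1 at 199.4 (197.6 to 201.2) and aNSCs at 190.4 (188.7 to 192.1). NB was at 180.4 (179.3 to 181.4), IPC1 at 174.2 (173.5 to 174.8), qNSC2 at 172.7 (171.4 to 174.0) and IPC2 at 171.0 (170.3 to 171.6). The lowest of the 8 was eNB, 158.3 (157.7 to 158.9), so that NSPCs were 1.36-fold above it. NSPCs and eNB were at the ends in WT and iKD cells and in female and male cells alike, with a ratio between 1.34 and 1.38. The neighbours IPC1 and qNSC2, and qNSC2 and IPC2, have overlapping intervals, while those from NSPCs down to NB do not overlap. Since the clusters were made from the expression of these same cells, differences between clusters are descriptions.

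Each chain on its own had the same ends among the 8 clusters, while the order between them differed in part. For C1qc, qNSC2 at 44.5 (43.9 to 45.2) was below IPC2 at 45.8 (45.5 to 46.1), the reverse of the sum. C1qa, which codes for the A chain, went from 63.5 (63.1 to 63.8) in eNB to 85.4 (84.9 to 85.8) in NSPCs. C1qb went from 52.7 (52.3 to 53.0) to 74.2 (73.8 to 74.7) and C1qc from 42.1 (41.8 to 42.4) to 55.7 (55.3 to 56.1), between the same clusters. Over the 16 combinations of 8 clusters and 2 genotypes, Pearson's r between the log2 levels of any pair of chains was 0.957 to 0.963. These points share their libraries and the denominator of total UMIs. The microglia markers, whose summed level was lowest in qNSC2 and highest in NSPCs in both genotypes, varied over the same clusters.

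**Figure D1:**
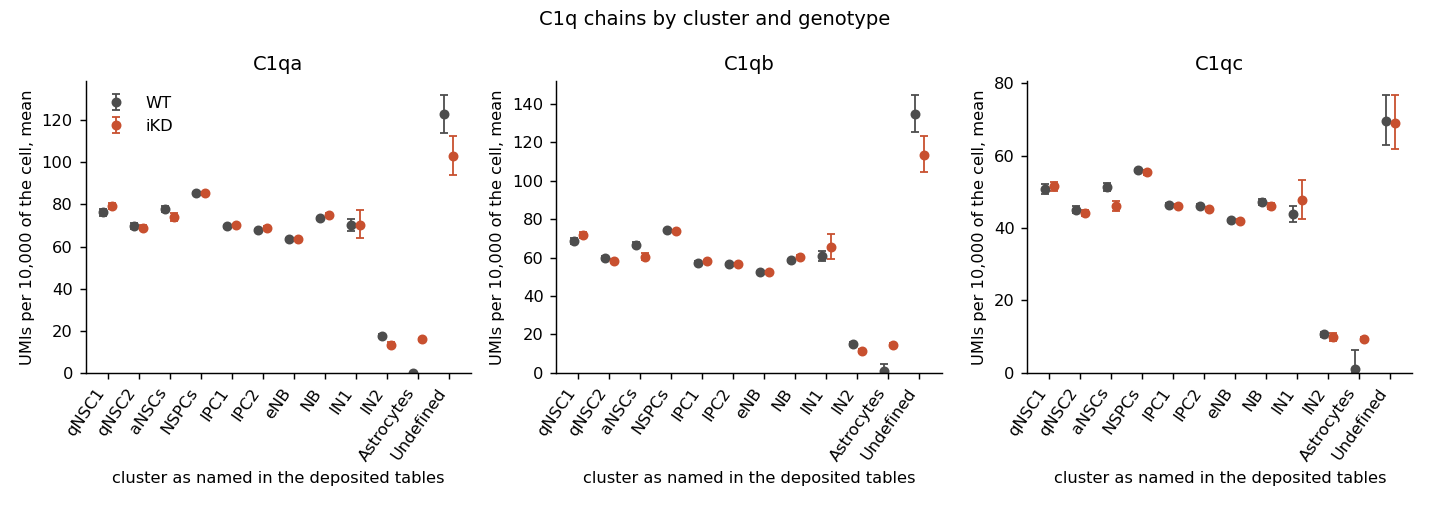
Mean level of C1qa, C1qb and C1qc (UMIs per 10,000 UMIs of the cell) in each of 12 clusters, WT in grey and iKD in orange, with exact 95% Poisson intervals as bars. In the 8 clusters from qNSC1 to NB the genotypes lie close together and NSPCs are highest, whereas IN2 and the cluster named Astrocytes lie far below and the undefined cluster above.

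The balance of the chains shifted slightly between clusters. C1qb UMIs per C1qa UMI went from 0.805 (0.795 to 0.816) in NB to 0.908 (0.890 to 0.928) in qNSC1. C1qc UMIs per C1qa UMI went from 0.630 (0.620 to 0.639) in NB to 0.671 (0.665 to 0.678) in IPC2. In NB the second ratio was 0.648 (0.635 to 0.661) in WT and 0.610 (0.597 to 0.623) in iKD. These are ratios of UMIs of the same cells and say nothing of the balance of the proteins.

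Single cells differed in C1q by more than counting alone would give. Over the 8 clusters the summed level per cell had a median of 175.6, with 5% of cells below 112.4 and 5% above 265.1. After each cell was thinned to 4500 UMIs, the coefficient of variation of summed C1q was 26.8%, against 11.1% for Poisson counts of the same mean. By cluster it went from 21.5% in NSPCs to 28.6% in aNSCs. A cell rich in 1 chain tended to be rich in the others. Within a cluster and genotype, Pearson's r across thinned cells was 0.443 to 0.626 for C1qa with C1qb over 16 groups, with medians of 0.498 for C1qa with C1qc and 0.464 for C1qb with C1qc. The sum had a median r of 0.115 with Cx3cr1, the fractalkine receptor of microglia. Cells of a group share a library, and the thinning fixes their depth.

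**Figure D2:**
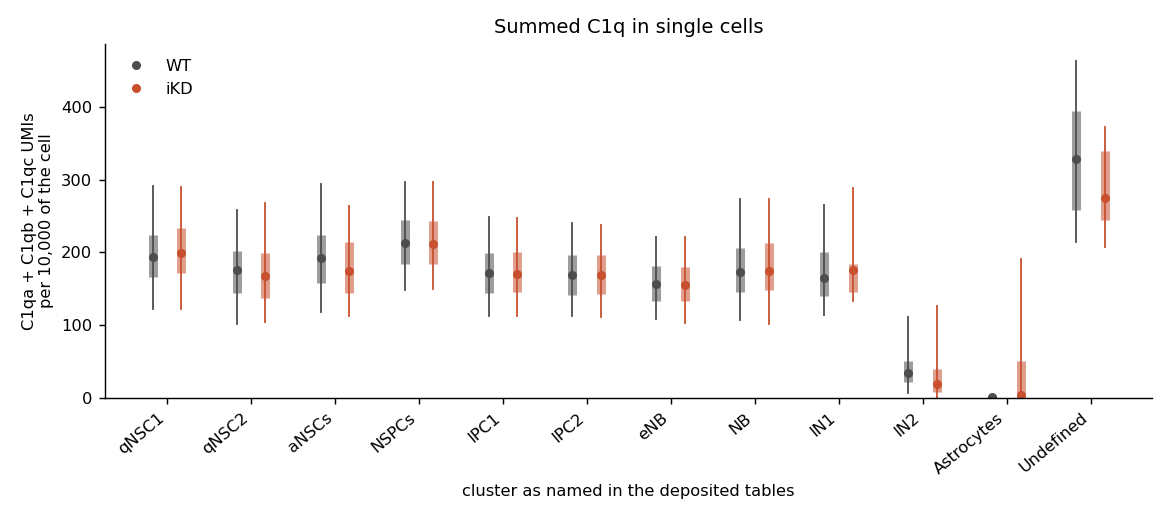
Summed C1q in single cells (UMIs of C1qa, C1qb and C1qc per 10,000 UMIs of the cell) by cluster, WT in grey and iKD in orange. Points are medians, thick bars the middle 50% of cells and thin lines run from 5% to 95% of cells. The middle bars of WT and iKD overlap in each cluster from qNSC1 to NB, and the 130 iKD cells of the cluster named Astrocytes have a median near 3 with a line that reaches 190.8.

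The 4 clusters outside this set ranged widely in summed C1q, and those of IN2 and of the cluster named Astrocytes have overlapping intervals. IN1, with 50 cells, was at 176.3 (172.3 to 180.4), within the span of the 8 clusters. The undefined cluster, 40 cells with a median of 2572.5 UMIs, was at 307.2 (296.8 to 317.9), with 1.09 C1qb UMIs per C1qa UMI (1.01 to 1.18). IN2, 288 cells with a median of 3102.5 UMIs, was at 40.4 (39.2 to 41.6), with 0.851 C1qb UMIs per C1qa UMI (0.793 to 0.913). In IN2, 16 cells had no C1q UMI.

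The cluster named Astrocytes, at 38.9 (37.7 to 40.1), was a mixture by its C1q. Of its 134 cells, 23 had no C1q UMI, 75 had 1 to 20 and 36 had over 20, all 36 of them iKD. The 36 were at 128.4 for C1q and 24.7 for Cx3cr1, beside 591 for Ttr, the transthyretin gene that marks choroid plexus. The 23 were at 0.110 for Cx3cr1 and 1293 for Ttr. The 75 were at 7.88 for C1q, 1.26 for Cx3cr1 and 1140 for Ttr. UMIs of microglial genes and of Ttr were thus found in the same 36 barcodes, and whether these are doublets was not tested. The median of the cluster's C1q level was 3.15.

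By the rule fixed for likeness, the genes whose log2 level over the 16 groups was most like that of summed C1q, among 3850 genes with a mean level of at least 0.5, were Fcer1g (r = 0.968), Itm2c (0.932) and Rer1 (0.927). Fcer1g codes for the gamma chain of Fc receptors. Its level was 18.8 in NSPCs and 13.4 in eNB, averaged over the genotypes. The 16 points share libraries and cluster definitions, and r is given as a description.

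The next steps of the cascade were close to undetected. C3, the central component, had 7 UMIs in 7 of 10804 cells. Of these, 5 were in qNSC2 cells of the iKD library, a level of 0.0247 (0.00803 to 0.0577) in 307 cells, beside 0 UMIs in the 195 WT cells, where 3 UMIs would be a level of 0.0180. The others were 1 UMI in a WT cell of IPC2 and 1 in an iKD cell of IN2. C3 is on the minus strand at chr17:57203970-57228136. At this depth C3 was not detectable as a transcript of any cluster as a whole.

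C4b, the mouse C4 gene, had 49 UMIs in 44 cells, 25 in WT and 24 in iKD. The aNSCs held 19 of them in 15 of 305 cells, a share of 4.92% (2.78 to 7.98), made up of 10 WT and 5 iKD cells. In qNSC2, the next by share, 7 of 502 cells had a C4b UMI, or 1.39% (0.562 to 2.85). The median depth was 8073 UMIs in aNSCs. The cluster named Astrocytes, with a median of 7722, had C4b in 0 of 134 cells, with an exact upper limit of 2.72%. Thinned to 4500 UMIs, the aNSC share was 3.02% (1.39 to 5.66). The thinned share in the cluster named Astrocytes was 0% of 108 cells, with an upper limit of 3.36%, so the thinned intervals overlap. The 15 aNSC cells with C4b had 187.7 for C1q and 38.4 for Cx3cr1, against 190.5 and 37.8 in the other 290, and both sets were at 0 for Gfap, an astrocyte gene. C4b, at chr17:34728380-34743882 on the minus strand, has a near-identical copy, C4a, that had 4 UMIs. Reads that match both genes cannot be assigned to either, so that the count of C4b is uncertain.

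Serping1 codes for the C1 inhibitor, which blocks the proteases C1r and C1s of the C1 complex. It had 2 UMIs, 1 in IN2 and 1 in the cluster named Astrocytes, both iKD. In the 8 clusters it had 0 UMIs in 10292 cells, which allows a share of up to 0.0291%. C1qa, C4b and Serping1 have no promoter entry in the table used, and theirs are not shown.

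The receptor genes C3ar1 and C5ar1 differed more between the 8 clusters than the C1q chains did. C3ar1 codes for the receptor of C3a, and C5ar1 and C5ar2 for the receptors of C5a, of which C5ar1 couples to G proteins and C5ar2 does not. C3ar1 was highest in qNSC1 at 6.34 (6.02 to 6.67) and lowest of the 8 clusters in NB at 1.35 (1.26 to 1.45), a ratio of 4.68 (4.30 to 5.10). Between them lay IPC1 at 3.03 (2.95 to 3.12), qNSC2 at 2.89 (2.72 to 3.06), eNB at 2.63 (2.56 to 2.71), IPC2 at 2.60 (2.53 to 2.69), aNSCs at 2.57 (2.38 to 2.78) and NSPCs at 2.53 (2.45 to 2.61). The intervals of IPC1 and qNSC2 overlap, as do those of each pair of neighbours from eNB to NSPCs, while IPC1 and qNSC2 each lie above eNB without overlap. The ratio of qNSC1 to NB was 4.77 in WT and 4.63 in iKD cells, 4.48 in female and 5.06 in male cells.

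C5ar1 had the same ends. It was at 3.20 (2.97 to 3.44) in qNSC1, 1.72 (1.60 to 1.86) in qNSC2 and 0.673 (0.610 to 0.741) in NB, with the other 5 clusters between 0.991 and 1.31. The ratio of qNSC1 to NB was 4.75 (4.21 to 5.37), with 5.58 in WT and 4.03 in iKD cells. C5ar2 did not share this pattern. It lay between 0.514 (0.426 to 0.615) in qNSC1 and 0.691 (0.651 to 0.734) in IPC2, with overlapping intervals at each step, and was 0.764 times as high in qNSC1 as in NB (0.619 to 0.939).

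**Figure D3:**
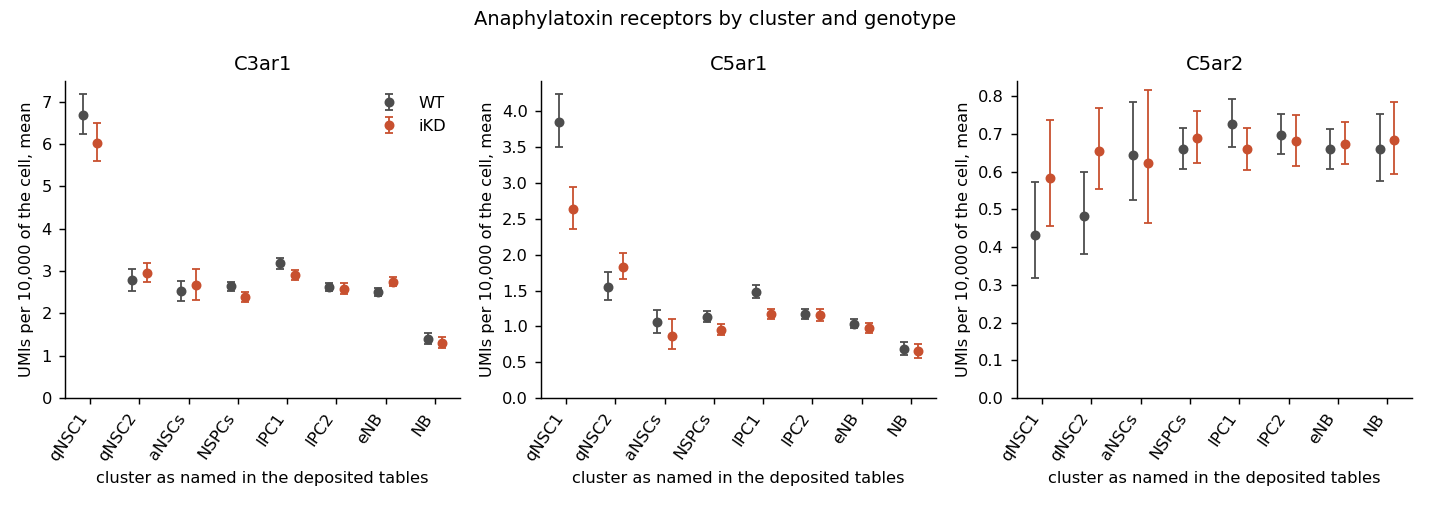
Mean level of C3ar1, C5ar1 and C5ar2 (UMIs per 10,000 UMIs of the cell, each panel with its own axis from 0) in the 8 clusters, WT in grey and iKD in orange, with exact 95% Poisson intervals. C3ar1 and C5ar1 are highest in qNSC1 and lowest in NB in both genotypes, and C5ar2 is lowest in qNSC1.

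Over the 16 groups, the log2 levels of C3ar1 and C5ar1 had r = 0.930, while C5ar2 had -0.586 with C3ar1 and -0.681 with C5ar1. These points share libraries and cluster definitions. For C3ar1 and C5ar1, qNSC1 and NB were the ends, and r without them was not computed. Between those ends the order differed, with IPC1 at 3.03 and qNSC2 at 2.89 for C3ar1 but 1.31 and 1.72 for C5ar1. C5ar2 and C5ar1 are neighbours on the minus strand of chromosome 7, at chr7:16234585-16244154 and chr7:16246743-16259540, with 2588 bases between them, and C3ar1 is at chr6:122847138-122856161. The promoters of C3ar1 and C5ar1 are shown because their levels vary together across clusters without the genes being neighbours. As for C1qc, the RefSeq start of C5ar1 lies inside the gene coordinates given here. Capitals mark the AP-1 motif TGACTCA and GGAAGT, printed as ACTTCC on the other strand.
C3ar1, chr6:122856108-122856407, minus strand: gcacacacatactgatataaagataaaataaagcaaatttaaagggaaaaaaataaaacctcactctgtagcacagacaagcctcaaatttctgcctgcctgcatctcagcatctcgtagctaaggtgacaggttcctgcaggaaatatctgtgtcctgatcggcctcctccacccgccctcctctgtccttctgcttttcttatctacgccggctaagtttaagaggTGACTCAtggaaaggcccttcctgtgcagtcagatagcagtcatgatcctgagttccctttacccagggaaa
C5ar1, chr7:16259289-16259588, minus strand: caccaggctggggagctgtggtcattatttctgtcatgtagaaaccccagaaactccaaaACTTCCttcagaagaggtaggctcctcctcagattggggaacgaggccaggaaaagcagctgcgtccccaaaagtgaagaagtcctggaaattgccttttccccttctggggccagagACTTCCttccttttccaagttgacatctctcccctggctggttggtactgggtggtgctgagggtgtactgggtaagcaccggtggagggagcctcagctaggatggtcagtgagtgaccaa
C3ar1 holds 1 TGACTCA and 0 GGAAGT, and C5ar1 holds 2 GGAAGT and 0 TGACTCA, so neither marked motif is in both. Of the members, 6 of 9 had an entry, with 7 promoters in all. Of these, 4 hold GGAAGT, 2 hold GTCAGC and 1 holds TGACTCA. Over all promoters the shares were 23.8%, 15.7% and 5.20%, and with 7 promoters no enrichment is read from these counts.

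The genes most like C3ar1 over the 16 groups were Pcna (r = 0.980), Ccl3 (0.974) and Eif4a1 (0.963). Those most like C5ar1 were Cd83 (0.945), Naa50 (0.934) and Hnrnpa1 (0.928). Ccl3, a chemokine, averaged 9.49 in qNSC1, 0.579 in eNB and 0.146 in NB. Cd83, an activation marker of myeloid cells, averaged 5.08 in qNSC1, 0.767 in NSPCs and 0.479 in NB. Pcna, the sliding clamp of DNA replication, averaged 1.21 in qNSC1 and 0.350 in NB. In each of these 3 genes qNSC1 was above the other clusters named here, as it was for C3ar1 and C5ar1.

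The share of cells with a receptor UMI followed the levels. C3ar1 was detected in 94.2% of qNSC1 cells (90.8 to 96.6) and 49.1% of NB cells (45.9 to 52.3), where the median cell had 8049.5 and 6652 UMIs. C5ar1 was detected in 71.2% (65.7 to 76.4) and 30.6% (27.6 to 33.6). In the cluster named Astrocytes, at a median of 7722 UMIs, the shares were 14.2% (8.76 to 21.3) and 5.22% (2.13 to 10.5), and among its 75 cells with 1 to 20 C1q UMIs, 1 had C3ar1. Thinned to 4500 UMIs, the C3ar1 share was 86.3% in qNSC1 and 39.2% in NB, and the C5ar1 share 55.4% and 22.9%.

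Cells with both receptors were somewhat more frequent than the product of the separate shares. Of 285 thinned qNSC1 cells, 50.9% had both, where the product of the shares is 47.9%. In NB it was 9.22% of 857 cells against 8.97%, and each of the 8 clusters had more than the product. C5ar1 was in 58.9% of the qNSC1 cells with C3ar1 and 33.3% of those without, in 42.4% and 31.8% of qNSC2 cells, and in 23.5% and 22.5% of NB cells. Across thinned cells within a group, r of C3ar1 with C5ar1 had a median of 0.0785 (-0.0356 to 0.338). With C5ar1 in 29.9% and C3ar1 in 57.1% of the thinned cells of the 8 clusters, the counts are sparse and no link or lack of one is read from this r. Summed C1q had a median r of 0.00684 with C3ar1.

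The comparison of genotypes asks whether loss of Vegfa from Nestin-expressing cells goes with other levels of these genes. Over the 6 clusters that the study compared, qNSC1 to IPC2, 3752 WT and 3412 iKD cells were used. C1qa was at 74.8 (74.4 to 75.1) in WT and 74.4 (74.1 to 74.7) in iKD. C1qb was at 63.7 (63.4 to 63.9) and 62.8 (62.5 to 63.1), and C1qc at 49.7 and 48.5, a log2 ratio of -0.04 (-0.05 to -0.03). The log2 ratio of iKD over WT for summed C1q was -0.02 (-0.025 to -0.014), with an exact binomial interval of the counts set around it. C1q was thus nearly level between the libraries.

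C3ar1 was at 2.91 (2.85 to 2.97) in WT and 2.84 (2.77 to 2.90) in iKD, a log2 ratio of -0.03 (-0.08 to 0.01). C5ar1 was at 1.34 (1.30 to 1.38) and 1.23 (1.18 to 1.27), a log2 ratio of -0.13 (-0.20 to -0.06). C5ar2 was at 0.670 (0.641 to 0.700) and 0.667 (0.635 to 0.701). Taking genes whose level reached 0.1 in WT or iKD, 6 members were kept, of which 6 had a ratio below 0 and 0 were past a log2 ratio of 0.25 either way, where 4.56% of 8836 genes were. Their median log2 ratio was -0.03, beside 0.01 over all those genes, of which 44.7% were below 0. C5ar1 had the largest difference of the 6. C5ar2, at -0.005 (-0.10 to 0.09), was above 0 in 7 of 15 alternatives, and over the 8 clusters pooled 5 of the 6 were below 0.

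**Figure D4:**
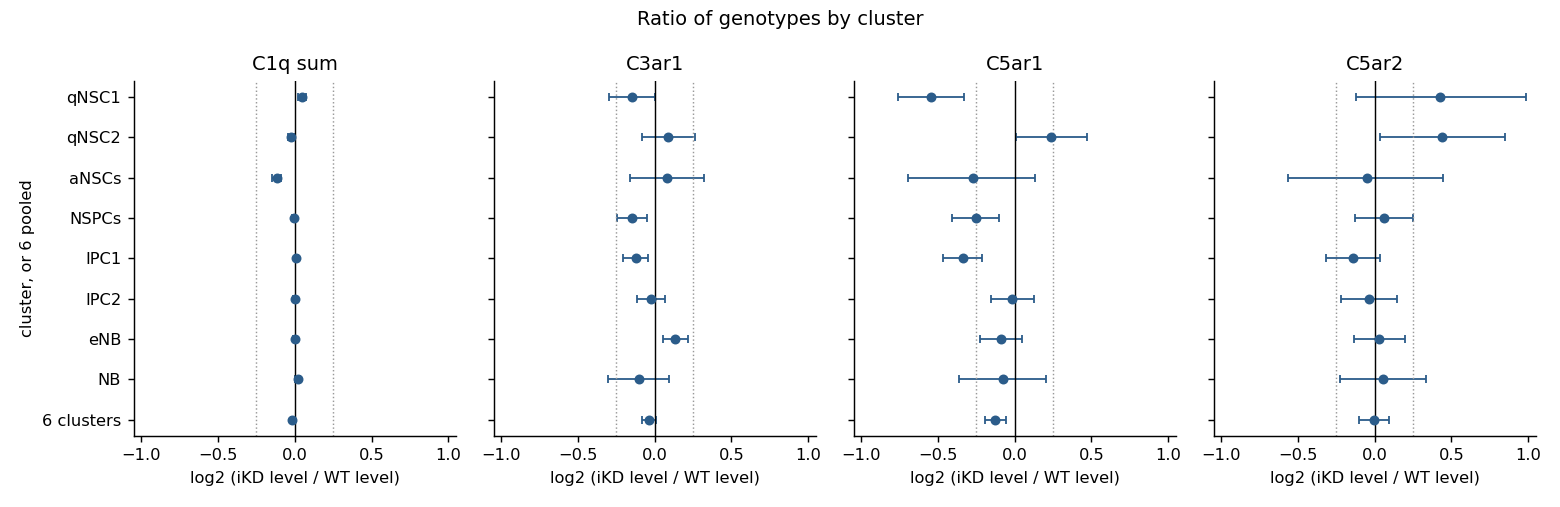
Log2 ratio of the mean levels, iKD over WT with a pseudocount of 0.01, for summed C1q and 3 receptors by cluster and over 6 pooled clusters, with counting intervals and dotted lines at 0.25 either way. Summed C1q lies near 0 throughout, and C5ar1 is below 0 in 7 of 8 clusters, with qNSC2 above.

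Within clusters, C5ar1 was lower in iKD cells in 7 of the 8. It was at 3.86 (3.50 to 4.24) in WT and 2.64 (2.36 to 2.95) in iKD cells of qNSC1, a log2 ratio of -0.55 (-0.76 to -0.33). In IPC1 it was at 1.48 and 1.17, a ratio of -0.34 (-0.47 to -0.21), and in NSPCs at 1.14 and 0.954, a ratio of -0.25 (-0.41 to -0.10). In qNSC2 it was the other way, 1.55 and 1.83, a ratio of 0.24 (0.01 to 0.47). These 4 are the clusters whose counting interval lies on 1 side of 0. In qNSC1 the ratio was -0.55 in female and -0.52 in male cells, and in IPC1 -0.32 and -0.36. Over the 6 clusters it was -0.17 (-0.26 to -0.08) in female and -0.06 (-0.18 to 0.06) in male cells, and without IPC1 it was -0.05.

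How many genes passed 0.25 either way differed widely between clusters, and the members' counts are read against it. In qNSC1, with 134 WT and 158 iKD cells, 2 of the 6 members did, C5ar1 lower and C5ar2 higher, where 45.6% of genes did. It was 1 of 6 in qNSC2 (C5ar2, with 35.7% of genes), aNSCs (C5ar1, 48.4%), NSPCs (C5ar1, 13.2%) and IPC1 (C5ar1, 12.7%). It was 0 of 6 in IPC2 (15.4%), eNB (11.1%) and NB (26%). In each of the 5 clusters with a count above 0, the members' share is near or below that of all genes, so these counts are no result about the members. Over the 8 clusters pooled, 0 of 6 members passed, and 3.37% of genes.

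C3ar1 had counting intervals below 0 in 3 clusters and above 0 in 1. It was at 6.70 in WT and 6.03 in iKD cells of qNSC1, a log2 ratio of -0.15 (-0.30 to -0.002), at -0.15 in NSPCs and -0.13 in IPC1, and at 2.51 and 2.75 in eNB, a ratio of 0.13 (0.05 to 0.22). The eNB ratio was 0.15 in female and -0.36 (-0.73 to 0.02) in male cells, of which there were 36 in WT and 75 in iKD. C5ar2 was at 0.482 in WT and 0.656 in iKD cells of qNSC2, a ratio of 0.44 (0.04 to 0.85), from 80 and 149 UMIs. The other 7 intervals of C5ar2 hold 0.

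Summed C1q by cluster lay between -0.12 and 0.05. In aNSCs it was at 195.8 (193.7 to 198.0) in WT and 180.4 (177.5 to 183.4) in iKD, a ratio of -0.12 (-0.15 to -0.09), and each chain was lower, C1qc most at -0.16. Of the aNSCs, 19.3% of WT and 88.9% of iKD cells were scored female, and the ratio was -0.13 in female and -0.13 in male cells, the latter with 6 iKD cells. In qNSC1 it was at 195.9 and 202.3, a ratio of 0.05 (0.02 to 0.07), with -0.01 in female and 0.20 in male cells. Counting intervals of such high counts are narrow and leave out the spread between cells and mice.

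**Figure D5:**
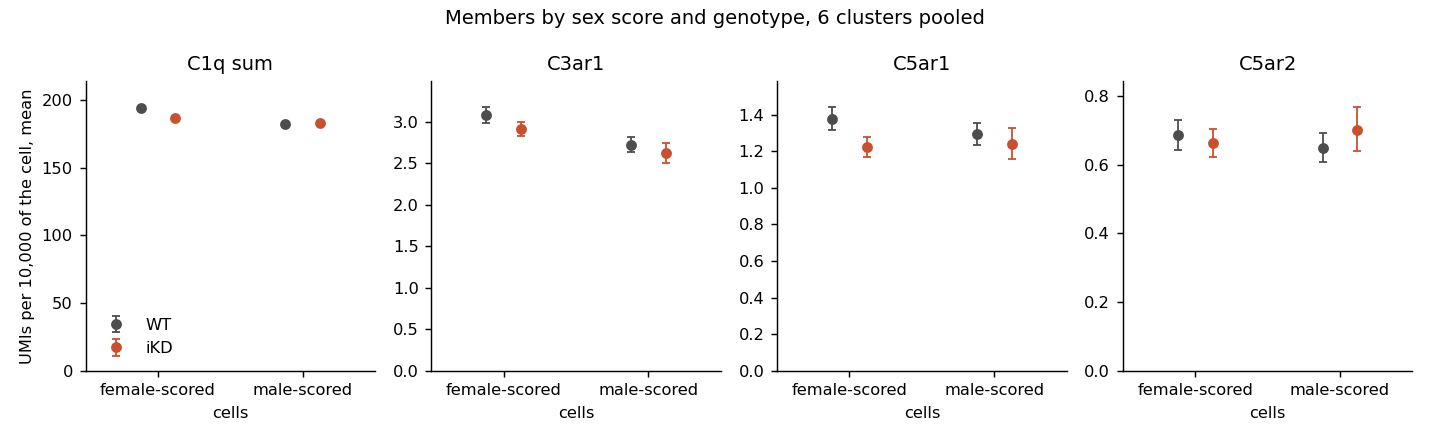
Mean level (UMIs per 10,000 UMIs of the cell) of summed C1q, C3ar1, C5ar1 and C5ar2 in female-scored and male-scored cells of the 6 pooled clusters, WT in grey and iKD in orange, with exact 95% Poisson intervals and axes from 0. Summed C1q was 193.7 in WT and 186.3 in iKD female cells but 182.1 and 182.5 in male cells.

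The sexes were not split alike between the genotypes. In the 6 clusters, WT cells comprised 1765 female and 1686 male cells, and iKD cells 2230 and 918. C3ar1 was higher in female cells in both genotypes, 3.08 against 2.72 in WT and 2.91 against 2.62 in iKD. C5ar1 was not ordered alike, with 1.38 in female and 1.30 in male WT cells but 1.22 and 1.24 in iKD cells, and neither was C5ar2, with 0.686 and 0.649 but 0.663 and 0.701. Since the clusters also differ in their share of female cells, sex and cluster are mixed in these pools, and their part in the ratios was not tested. Summed over 8 choroid plexus markers, the level also differed between genotypes, at 0.153 in WT and 10.7 in iKD cells of the 8 clusters. This sum was 10.2 to 12.3 in each iKD cluster. With both genotypes and the 8 clusters pooled, 1 of the 8 markers was found in most cells. By cluster, this number was 0 in aNSCs, NSPCs and IPC2 and 1 in each of the others. These shares were not split by genotype. WT cells had at most 11996 UMIs, so at a sum of 0.153 most WT cells held none of these markers. The pooled median share of the 8 markers was 0.612%. The sum therefore does not show that the set moved as a whole. Microglia markers summed to 271 and 262. The part of either in the ratios was not tested.

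Beyond the members, 56 other complement genes were examined, and 10 had a level of at least 0.1 over all cells. Of the 15 genes of the classical and lectin pathways, the 3 of the alternative and the 7 of the terminal pathway, 0 reached it. C1ra had 80 UMIs, C2 92, C1s1 0 and C5, listed as Hc, 8. Of 20 regulators, 5 did, among them Csmd3 at 35.2, Cr1l at 1.15, Cd46 at 0.176 and Clu, clusterin, at 0.133. Clu was found in 87.3% of cells of the cluster named Astrocytes and 4.15% of all cells. Of 11 receptors of C3 fragments and C1q, 5 did: Itgam at 6.32 and Itgb2, in 64.0% of cells, which together make complement receptor 3, Calr at 5.75, Lrp1 at 3.14 and C1qbp at 0.526.

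Some of these genes ran against the C3ar1 order. Itgam was lowest in qNSC1 at 4.57 and highest in NB at 7.64, and Csmd3 was 18.9 in qNSC1 and 42.5 in eNB. C1qbp, a mitochondrial protein that also binds C1q, was highest in qNSC1 at 1.01. Between genotypes, of the 9 at a level of 0.1 in the 6 clusters, 0 were past a log2 ratio of 0.25, where 4.56% of all genes were. Csmd3 was at 30.2 in WT and 33.8 in iKD, a ratio of 0.17 (0.15 to 0.18). The median of the 9 ratios was 0.06, and 3 of 9 were below 0, beside 44.7% of all genes. Below that level, Clu had 65 WT and 161 iKD UMIs, at levels of 0.0231 and 0.0658. Its log2 ratio was 1.19 (0.77 to 1.63). Clu was at 6.68 in the cluster named Astrocytes and at 0.0224 to 0.0735 in the 8 clusters. The cluster named Astrocytes has 4 WT and 130 iKD cells, and whether its transcripts had a part in the ratio was not tested. Csmd1, a gene named here after its values were seen, had 166 and 51 UMIs, a ratio of -1.09 (-1.57 to -0.63). Csmd1 was at 2.09 in IN2, which has 194 WT and 94 iKD cells, and at 0.0288 to 0.0577 in the 8 clusters. Whether transcripts of IN2 had a part in the ratio was not tested. At the low levels of Clu and Csmd1 in the 6 clusters, the pseudocount draws the ratios of both genes toward 0.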

How the data were processed

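EYFP+ cells of the adult mouse DG were profiled with 1 WT and 1 iKD 10x library, each from 5 pooled littermates. Per the methods, CellRanger 7.0.1 aligned and deduplicated the reads, and Seurat 4.1.1 filtered, log normalized with a scale factor of 10,000, integrated both libraries and found clusters. What the authors deposited are natural log values, 1 plus the counts per 10,000 UMIs, in 1 table per cluster, and 0 columns were left unused. The submitters' processing notes name a human build, while the genes are of mouse. The build used and the counting of introns are not given in the sources used here, so that coordinates are of GENCODE release M21 on GRCm38 and may not be those of the authors. The methods exclude cells with under 2000 genes, and 496 of the deposited cells are below that. All cells were kept, and no doublet caller was run.

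UMI counts were recovered from the natural log values, and 100% of the 32261786 values above 0 were whole within 0.01. Levels are means over cells per 10,000 UMIs. Log2 ratios use a pseudocount of 0.01. Intervals at 95% are exact Poisson for UMIs, exact binomial for shares, and exact binomial for the split of summed counts in ratios, and cover counting error only. A count of 0 allows 3. With 1 library per genotype no test was made. Cells were scored female with an Xist UMI and none of 4 Y-linked genes, male in the reverse case. Shares are of all cells unless called thinned. For thinned shares, for the variation of C1q between cells and for cell correlations, cells were thinned to 4500 UMIs, leaving out 263 WT and 357 iKD cells. The members and the gene lists were chosen with earlier results of these data known. Genes named are the members, other complement genes with a level of at least 0.1, a few further complement genes singled out after their values were seen (C1ra, C2, C1s1, Hc), marker genes, and for likeness the 3 genes with the highest r over 16 groups at a mean level of at least 0.5. Values of some of these genes are not reported here. Alternatives were other pseudocounts, scalings, cluster sets, filters and sexes. On simulated data with 32285 genes and 800 cells per genotype for this comparison, 100% of counts were recovered. The direction was right for 200 of 200 changed genes, and the true ratio was inside the interval for 189. The changed genes all had WT levels above 0.5, and simulated cells of a genotype differed by depth and counting alone. Genes at lower levels and the spread between real cells were thus not covered. Python 3.11.15, numpy 2.4.6, scipy 1.17.1, pandas 2.3.3 and matplotlib 3.10.9 were used.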

Additional observations from a re-analysis of the deposited data

Results flagged for a closer look

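Between clusters, summed C1q, C3ar1 and C5ar1 had genotype ratios on opposite sides of 0 by their counting intervals, and these differences were not tested. Summed C1q had a log2 ratio of iKD over WT of -0.118 in aNSCs, where 19.3% of WT and 88.9% of iKD cells were scored female, and 0.0463 in qNSC1. C3ar1 had -0.151 in qNSC1 and 0.134 in eNB. C5ar1 had -0.546 in qNSC1 and 0.239 in qNSC2. With 8 clusters and 1 library per genotype, these pairs were picked after the values were seen.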

How the results depend on the processing

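The number of members past a log2 ratio of 0.25 over the 6 clusters was 0 in the 17 alternatives computed. The log2 ratio of summed C1q lay between -0.0562 and 0.0032 over 15 alternatives and was below 0 in 14. It was -0.029 with scaling by the median ratio over genes, which shifts all genes by 0.0095, -0.0279 over all 12 clusters, -0.0562 in female cells and -0.0265 as the mean of the female and male ratios. It reversed in male cells, at 0.0032, as did C1qb, at 0.0143. The cause was not tested. The ratio of the highest to the lowest cluster for summed C1q, 1.36, was 1.34 in female and 1.38 in male cells. C5ar1 was below 0 in 18 of 18 alternatives, between -0.20 and -0.05, with the weakest value without IPC1, and C3ar1 in 15 of 15. C5ar2 was below 0 in 8 and above in 7 of 15, between -0.05 and 0.12. Shares of cells fell with a stricter rule: asking for 2 UMIs gave 46.5% for C3ar1, 19.3% for C5ar1 and 10.9% for C5ar2 in the 8 clusters, from 70.2%, 40.7% and 36.4%. The mean of the female and male ratios, the ratios of clusters by genotype and sex, their thinned values and the omission of single clusters were chosen after seeing the data. No paired analysis was possible because each genotype has 1 library. Without a second library, the precision stated is that of counting alone.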
